A study of Homo sapiens with 20 samples.

Results

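A set of 10 genes that report on, or limit, signalling through the kinase ERK was followed in human pancreatic progenitors (PPs) and human islet-like organoids (hILOs) with and without the RNA demethylase ALKBH5. They are the dual-specificity phosphatases *DUSP1*, *DUSP4*, *DUSP5* and *DUSP6*, the Sprouty genes *SPRY1*, *SPRY2* and *SPRY4*, the Sprouty-related *SPRED1*, and the transcription factors *ETV4* and *ETV5*. The 10 genes were taken by symbol from 60623 gene identifiers in the PP tables and 60624 in the hILO tables, and all 10 passed the filter of a mean of at least 1 in both. The list was chosen by measured values, the levels of these genes in PPs and their courses under actinomycin D (Act D), so those values are given here as a description, without a test. The hILO values come from other cultures at a later stage, but earlier results of these data, hILOs included, were known when the list was drawn up, so the calls there are not independent evidence either.

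Both genotypes derive from the human embryonic stem cell line MEL1 (MEL1 INS GFP/W in the study's methods, a line with a GFP reporter at the insulin gene), so all samples share that allele. WT is the parental line, and A5-KO is 1 edited line in which the nuclease Cpf1 made insertions or deletions in the first exon of *ALKBH5*, so a property of that line and an effect of the lost gene cannot be told apart. PPs of both genotypes received 1 µg/ml Act D for 0, 1, 2 or 3 h, with 16 libraries in all (2 per genotype and time), and 4 hILO libraries, 2 for each genotype, were made without Act D. Every sample had been differentiated with KGF at 50 ng/ml on days 4 to 8 and EGF at 50 ng/ml on days 9 to 14, both of them activators of ERK, and the labels describe hILO media for days 15 to 22. The study calls its replicates biological and describes the wells of a replicate as coming from 1 batch of cells, while the labels give only a number. *p* values measure the spread between such replicates of 1 line per genotype.

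ERK is the last kinase of a cascade that runs from growth factor receptors through RAS, RAF and MEK. Active ERK enters the nucleus and induces the genes that switch it off again. Dual-specificity phosphatases remove the phosphates from ERK itself, Sprouty and SPRED proteins act upstream at the level of receptor adaptors, RAS and RAF, and ETV4 and ETV5 belong to the PEA3 group of ETS factors, which are transcribed in response to FGF signalling. The mRNAs of several of these brakes are short-lived. In the embryonic pancreas, FGF and EGF receptor signals sustain the proliferation of progenitors. ALKBH5 removes the methyl group from N6-methyladenosine (m6A) in RNA, a mark that is placed mostly within short motifs around GGACT and can target an mRNA for decay. Act D blocks transcription, so that the loss of an existing mRNA can be followed over time.

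The 3′ untranslated regions (3′ UTRs) of the 10 genes did not all hold the AU-rich motifs known from unstable mRNAs. The AU-rich nonamer TTATTTATT, read on the sense strand of each gene's canonical transcript (GRCh38, GENCODE 44), occurred in 2 of the 10 genes, *DUSP1* and *DUSP4*, and in 9.75% of 12208 expressed genes with a 3′ UTR. *DUSP1* held it 2 times in a 3′ UTR of 666 bases. Both copies are shown, with the nonamer in capitals, because of the low 1 h to 0 h ratio of this mRNA. That ratio ranked 119 in WT and 172 in A5-KO from the lowest of 13620 genes. *SPRY1* (ranks 11 and 1) and *SPRY2* (81 and 44), without the nonamer, ranked nearer the lowest. In WT the other members without it ranked farther from the lowest than *DUSP1*. *DUSP4*, which holds the nonamer, ranked 489 in WT and 855 in A5-KO. A relation of the motif to these ratios was not tested.
DUSP1, chr5:172768643-172768671, minus strand: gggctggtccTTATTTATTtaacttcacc
DUSP1, chr5:172768375-172768403, minus strand: agaatataccTTATTTATTtttgtgtagg
The shorter core ATTTA occurred 4 times in *DUSP1*, 6 times in *DUSP4*, 4 times in *SPRY1*, 2 times in *SPRY2*, 8 times in *SPRY4*, 24 times in the 5585-base 3′ UTR of *SPRED1* and 4 times in *ETV5*. *DUSP6* held it 1 time, and *DUSP5* and *ETV4* had 0 copies. The median of all 12208 genes was 2 copies. These counts are not adjusted for length: the 3′ UTRs of *DUSP4* and *SPRY4* have 3962 and 3779 bases, against a median of 1374 over all genes. At least 5 copies were present in 3 of the 10 genes and in 34.7% of all genes. The nonamer occurred in 14.4% of the 3′ UTRs of at least 1000 bases. Each nonamer contains the core, so nonamer and core counts overlap.

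The letters GGACT occurred in all 10 transcripts, from 2 times in *ETV4* to 11 times in *DUSP4*, with a median of 4 against 3 over all genes. The first GGACT of the 3′ UTR is shown in capitals for *DUSP5*, *DUSP6* and *SPRY2*, the members whose Act D courses differed most between the genotypes. These 3 were picked after their values were seen.
DUSP5, chr10:110510598-110510622, plus strand: taggttctcgGGACTgaaggaaggc
DUSP6, chr12:89348977-89349001, minus strand: acccatgcagGGACTgggattcgag
SPRY2, chr13:80336207-80336231, minus strand: atttccctttGGACTtcatgtatat
Counted from the first base after the stop codon, these motifs begin at base 182 of 1107 in *DUSP5*, base 263 of 2019 in *DUSP6* and base 537 of 782 in *SPRY2*. The tables used here hold no methylation values, and a match of letters is not a methylated site.

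Promoter windows of 250 bases upstream of an annotated start (RefSeq, GRCh38.p14) were matched for *DUSP1*, *DUSP6*, *SPRY1*, *SPRY2*, *SPRY4* and *SPRED1*. The palindrome TGACGTCA, the cAMP response element through which stimulus-activated CREB and ATF factors bind, was present in *DUSP1* and in none of the other matched windows, and 1.65% of 35116 RefSeq promoters held it. The *DUSP1* window is shown with that element in capitals, as the one matched promoter in which a searched motif was found.
DUSP1 promoter, chr5:172771196-172771445, minus strand: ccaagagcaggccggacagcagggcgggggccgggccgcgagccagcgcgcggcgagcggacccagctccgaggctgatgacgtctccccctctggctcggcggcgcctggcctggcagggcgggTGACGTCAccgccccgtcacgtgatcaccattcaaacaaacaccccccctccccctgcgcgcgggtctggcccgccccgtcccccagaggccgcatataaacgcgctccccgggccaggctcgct
The ETS letters CCGGAAGT (3.42% of promoters) and the AP-1 letters TGACTCA (4.20%), searched on both strands, were found in 0 of the matched windows.

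PP libraries held 30516384 to 35206514 assigned reads. Over all times of Act D, *ALKBH5* was at 33.7 to 172 CPM in the 8 WT PP libraries and 7.43 to 19.1 CPM in the 8 A5-KO libraries. At 0 h it was at 149 and 172 CPM in WT and 19.1 and 18.8 CPM in A5-KO. In hILOs it was at 78.8 and 81.9 TPM in WT against 4.16 and 3.42 TPM in A5-KO. PPs expressed 6 of 7 progenitor markers, *PTF1A* being at no more than 0.464 CPM. The WT libraries at 2 h stood apart from each other: the median difference between them over expressed genes was 0.20 on the log2 scale, against 0.07 to 0.15 in the other 7 PP groups. In CPM each library sums to the same total, so a level after Act D is relative to the mRNA that remained.

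Untreated PPs of both genotypes contained all 10 mRNAs at similar levels. Per kilobase of exon, at 0 h in WT PPs, *DUSP5* was the highest at 320 ± 86.6 CPM per kb (SD, n = 2), followed by *SPRY2* at 102 ± 25.3, *DUSP6* at 54.2 ± 12.1, *ETV4* at 41.9 ± 0.0556 and *SPRY1* at 35.0 ± 7.38. *DUSP1* was at 15.7 ± 2.91, *ETV5* at 11.2 ± 1.105, *SPRY4* at 11.0 ± 1.66, *SPRED1* at 7.92 ± 1.29 and *DUSP4* at 4.00 ± 0.494 CPM per kb. Of the neighbours in this order, *ETV5* and *SPRY4* overlapped, and *ETV4* was above *SPRY1* by less than the SD of *SPRY1*. The A5-KO libraries lay below both WT libraries for *ETV4* only (20.8% of genes) and above both for 0 of 10 (29.0%). In both genotypes replicate 1 was above replicate 2 at 0 h for 9 of the 10 genes, *ETV4* being the exception, a pattern shown by 42.2% of genes.

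Markers of other cell types were at unequal levels in PPs. At 0 h the summed level of 6 hepatic markers was 1083 to 1132 CPM in WT and 1861 to 1887 CPM in A5-KO. The largest of them, *AFP*, was at 563 and 551 CPM in WT and 1343 and 1294 CPM in A5-KO. *SERPINA1* went the other way, at 311 and 371 CPM in WT against 200 and 268 CPM in A5-KO. Of the 6 hepatic markers 4 were called higher and 0 lower. The 5 mesenchyme markers, of which *THY1* and *DCN* were near 0, summed to 36.7 to 41.1 CPM in WT and 84.1 to 92.2 CPM in A5-KO. The 7 progenitor markers summed to 827 to 1056 CPM in WT and 762 to 842 CPM in A5-KO. The 4 intestine markers summed to 318 to 338 CPM in WT and 427 to 431 CPM in A5-KO, and the 9 endocrine markers to no more than 6.89 CPM. The 4 pluripotency markers summed to 121 to 124 CPM in WT and 234 to 248 CPM in A5-KO, nearly all of it *LIN28A*, while *POU5F1* and *NANOG* were at or near 0 in every PP library. In bulk RNA, fewer cells of a type and less RNA per cell cannot be told apart, and the part of these cells in the values of the 10 genes was not tested.

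*DUSP5* (ENSG00000138166, chr10:110497907-110511533, plus strand, 4 exons), which encodes a nuclear phosphatase that binds and inactivates ERK, had the most divergent course. The WT libraries held 966.7 and 656.1 CPM at 0 h, 229 and 280 CPM at 1 h, 86.1 and 298 CPM at 2 h, and 210.3 and 266 CPM at 3 h (replicates 1 and 2). The A5-KO libraries held 805 and 592 CPM at 0 h, 262 and 284 CPM at 1 h, 73.1 and 68.2 CPM at 2 h, and 18.6 and 15.0 CPM at 3 h. The genotypes overlapped at 0 and 1 h and were separate at 2 and 3 h. Between 1 and 3 h the mean log2 ratio was −0.10 ± 0.04 (SD, n = 2) in WT and −4.02 ± 0.30 in A5-KO, the lowest value of 13620 genes in A5-KO. At 3 h the mean was 14.2-fold lower in A5-KO than in WT.

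*DUSP6* (ENSG00000139318, chr12:89347235-89352501, minus strand, 3 exons), the cytoplasmic ERK phosphatase, followed the same outline. WT PPs had 242 and 176 CPM at 0 h, 56.7 and 62.9 CPM at 1 h, 26.2 and 57.9 CPM at 2 h, and 61.6 and 76.9 CPM at 3 h. A5-KO PPs had 261 and 187 CPM at 0 h, 50.6 and 56.1 CPM at 1 h, 18.7 and 18.2 CPM at 2 h, and 11.0 and 8.51 CPM at 3 h. The A5-KO libraries lay below WT from 1 h onwards, by 7.09-fold at 3 h. A gene on the other strand, ENSG00000274021, shares 1105 exon bases with *DUSP6*. It was at 0.0286 to 1.73 CPM in PPs and at 3.27 to 5.62 TPM in hILOs. Without strand, which the counting is not stated to use, its reads cannot be told apart from those of *DUSP6*.

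*DUSP1* (ENSG00000120129, chr5:172768096-172771195, minus strand, 4 exons), an immediate early phosphatase that acts on p38 and JNK as well as ERK, is the gene with the 2 nonamers and the cAMP response element. Values in WT were 35.8 and 27.5 CPM at 0 h, 6.52 and 6.25 CPM at 1 h, 3.92 and 8.88 CPM at 2 h, and 9.84 and 9.26 CPM at 3 h. Values in A5-KO were 28.4 and 24.8 CPM at 0 h, 6.18 and 6.60 CPM at 1 h, 3.47 and 3.01 CPM at 2 h, and 2.07 and 2.31 CPM at 3 h. The genotypes overlapped at 1 h, with means at 20.1% of the 0 h mean in WT and 24.0% in A5-KO. Thereafter both WT libraries at 3 h were above both at 1 h, and the A5-KO mean at 3 h was 4.36-fold below WT.

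*DUSP4* (ENSG00000120875, chr8:29333064-29350684, minus strand, 4 exons) encodes another nuclear phosphatase. In WT PPs it was at 31.6 and 26.5 CPM at 0 h, 9.89 and 10.1 CPM at 1 h, 5.97 and 15.0 CPM at 2 h, and 12.4 and 12.4 CPM at 3 h. The level in A5-KO was 33.7 and 24.6 CPM at 0 h, 12.1 and 13.2 CPM at 1 h, 6.36 and 5.57 CPM at 2 h, and 4.23 and 3.51 CPM at 3 h. At 1 h the A5-KO libraries were therefore the higher ones, and at 3 h they were the lower ones, by 3.195-fold.

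**Figure D1:**
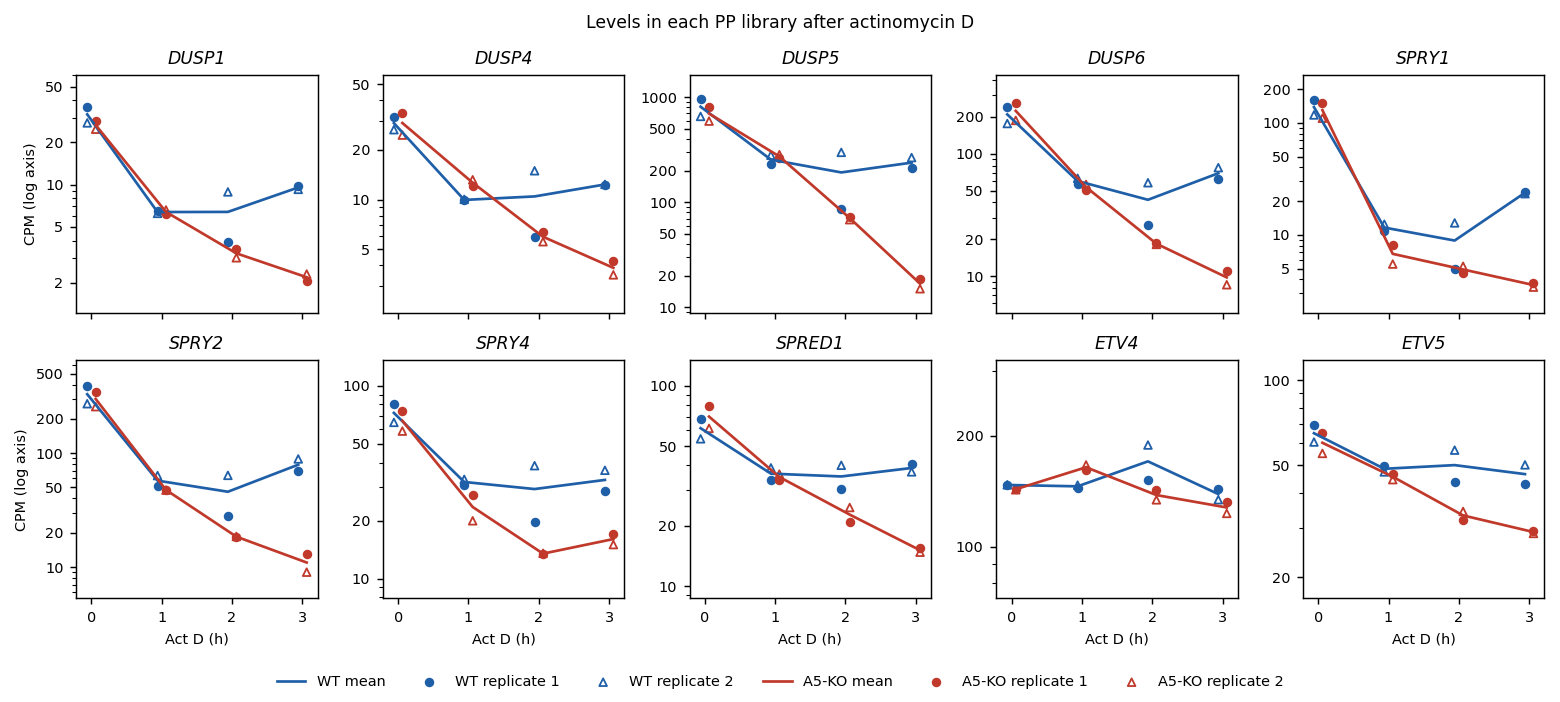
Level of each of the 10 genes (CPM, log axis) against hours of Act D in PPs. Filled circles are replicate 1, open triangles replicate 2 and lines the mean of 2 libraries, with WT in blue and A5-KO in red. The genotypes are close at 0 h. At 3 h both A5-KO libraries lie below both WT libraries for all 10 genes, from 14.2-fold for *DUSP5* to 1.09-fold for *ETV4*, and the WT libraries at 2 h are spread widely for most genes.

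Sprouty proteins dampen receptor tyrosine kinase signals upstream of RAS and RAF. *SPRY2* (ENSG00000136158, chr13:80335976-80341126, minus strand, 2 exons) was the most abundant of the Sprouty and SPRED genes. The WT libraries held 386.7 and 272 CPM at 0 h, 51.2 and 63.5 CPM at 1 h, 27.9 and 63.8 CPM at 2 h, and 69.4 and 88.9 CPM at 3 h. In A5-KO PPs it was at 343 and 256 CPM at 0 h, 47.7 and 47.3 CPM at 1 h, 18.4 and 18.5 CPM at 2 h, and 12.9 and 9.01 CPM at 3 h. In WT both 3 h libraries exceeded both 1 h libraries, whereas in A5-KO the 3 h mean was 4.34-fold below the 1 h mean. The difference between the genotypes at 3 h was 7.23-fold.

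*SPRY1* (ENSG00000164056, chr4:123396795-123403760, plus strand, 3 exons) had the largest fold difference between 0 and 1 h of the 10 genes. WT PPs had 159 and 118 CPM at 0 h, 10.8 and 12.5 CPM at 1 h, 5.01 and 12.8 CPM at 2 h, and 24.3 and 23.3 CPM at 3 h. The A5-KO libraries held 150.0 and 110.2 CPM at 0 h, 8.05 and 5.49 CPM at 1 h, 4.58 and 5.24 CPM at 2 h, and 3.72 and 3.41 CPM at 3 h. The 1 h mean was 8.40% of the 0 h mean in WT and 5.21% in A5-KO, which placed *SPRY1* at rank 11 and rank 1 of 13620 genes by the log2 ratio. In WT its 3 h mean was 2.05-fold above its 1 h mean. The 3 h level was 6.68-fold lower in A5-KO than in WT.

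*SPRY4* (ENSG00000187678, chr5:142310427-142326455, minus strand, 2 exons) differed less. Values in WT were 80.0 and 64.6 CPM at 0 h, 30.7 and 32.7 CPM at 1 h, 19.8 and 38.5 CPM at 2 h, and 28.6 and 36.5 CPM at 3 h. A5-KO PPs had 73.6 and 58.2 CPM at 0 h, 27.1 and 20.0 CPM at 1 h, 13.4 and 13.5 CPM at 2 h, and 17.1 and 15.0 CPM at 3 h. It was the one gene of the 10 whose A5-KO mean was higher at 3 h than at 2 h. *SPRED1* (ENSG00000166068, chr15:38252836-38357249, plus strand, 7 exons), a partner of the RAS inactivator neurofibromin, had a smaller difference between 0 and 1 h. In WT PPs it was at 68.4 and 54.3 CPM at 0 h, 33.9 and 38.9 CPM at 1 h, 30.4 and 40.1 CPM at 2 h, and 40.5 and 37.2 CPM at 3 h. Values in A5-KO were 79.0 and 61.2 CPM at 0 h, 33.9 and 36.2 CPM at 1 h, 20.8 and 24.7 CPM at 2 h, and 15.5 and 14.8 CPM at 3 h. WT thus stayed near its 1 h level, and A5-KO at 3 h was 2.57-fold below WT.

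The PEA3 factors stayed nearest to their starting levels. *ETV4* (ENSG00000175832, chr17:43527844-43579620, minus strand, 13 exons) was at 147 and 147 CPM at 0 h, 145 and 147 CPM at 1 h, 152 and 189 CPM at 2 h, and 144 and 134 CPM at 3 h in WT PPs. The level in A5-KO was 144 and 143 CPM at 0 h, 162 and 167 CPM at 1 h, 142 and 134 CPM at 2 h, and 133 and 123 CPM at 3 h. Relative to all mRNA, *ETV4* was therefore near its starting level for 3 h in both genotypes. Its exons share 68 bases with *DHX8* on the other strand. *ETV5* (ENSG00000244405, chr3:186046314-186110318, minus strand, 13 exons) was at 69.4 and 60.4 CPM at 0 h, 49.8 and 47.3 CPM at 1 h, 43.5 and 56.6 CPM at 2 h, and 42.8 and 50.1 CPM at 3 h in WT PPs. In A5-KO PPs it was at 65.1 and 55.1 CPM at 0 h, 46.6 and 44.4 CPM at 1 h, 32.1 and 34.3 CPM at 2 h, and 29.3 and 28.6 CPM at 3 h. The 3 h difference was 1.60-fold for *ETV5*, whose exons share 164 bases with *DGKG* on the same strand, and 1.09-fold for *ETV4*.

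For all of the set but *ETV4*, the genotype means were closer at 1 h than at 3 h. At 1 h *SPRY1* was already 1.72-fold lower in A5-KO. Between 0 and 1 h the level was at least 2-fold lower in both replicates for 6 of 10 genes in WT (*DUSP1*, *DUSP4*, *DUSP5*, *DUSP6*, *SPRY1* and *SPRY2*; 6.25% of 13620 genes) and for 6 of 10 in A5-KO (*SPRY4* in place of *DUSP4*; 6.63%). The median log2 ratio of the 10 genes was −1.59 in WT and −1.42 in A5-KO, against −0.13 and −0.15 over all genes. At 1 h the A5-KO libraries lay below both WT libraries for 5 genes (*DUSP6*, *SPRY1*, *SPRY2*, *SPRY4* and *ETV5*; 23.3% of genes) and above both for 2 (*DUSP4* and *ETV4*; 32.6%).

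Between 1 and 3 h, both WT libraries at 3 h were above both at 1 h for 4 of 10 genes (*DUSP1*, *DUSP4*, *SPRY1* and *SPRY2*; 24.7% of genes) and below both for *ETV4* only (11.3%). In A5-KO both 3 h libraries were below both 1 h libraries for 10 of 10 (45.7%), and both 2 h libraries already were for 10 of 10 (44.5%), against 0 of 10 for the 2 h libraries of WT (19.9%). The log2 ratio of 3 h to 1 h had a median of 0.15 in WT, with 7 genes above 0 (8166 of 13620 genes), and of −1.36 in A5-KO, with 0 above 0 (4856 of 13620). Over all genes the medians were 0.04 and −0.13. Scaling by median of ratios left 6 genes above 0 in WT and again 0 in A5-KO. At 3 h both A5-KO libraries lay below both WT libraries for 10 of 10 genes (46.0%), up from 8 of 10 at 2 h (37.5%), and the mean was at least 2-fold lower for 8 of 10, all but *ETV4* and *ETV5* (10.9%). *SPRY4*, at 2.03-fold, was just inside that limit, and *ETV5*, at 1.60-fold, just outside.

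**Figure D2:**
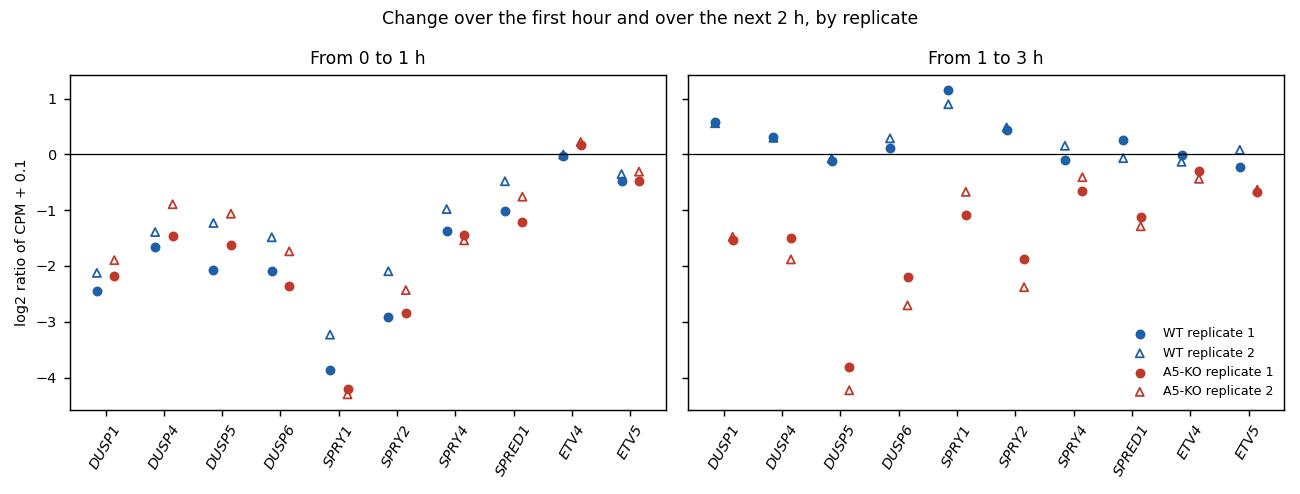
Log2 ratio of CPM + 0.1 from 0 to 1 h (left) and from 1 to 3 h (right) for the 10 genes in each replicate of WT (blue) and A5-KO (red) PPs. Replicate 1 of one time is set against replicate 1 of the other. On the left the genotypes lie close together for most genes. On the right WT values lie between −0.22 and 1.16, and A5-KO values between −4.23 and −0.29.

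The A5-KO minus WT difference of the 1 to 3 h change ranged from −3.92 for *DUSP5* to −0.29 for *ETV4*, with a median of −1.96 against −0.20 over all genes. It was below 0 for 10 of 10 genes and for 67.6% of 13620 genes. The slope through the origin had a median of −0.71 log2 units per h in WT and −1.18 in A5-KO, against −0.05 and −0.10 over all genes. It was steeper in A5-KO for 10 of 10 genes (68.2% of genes), or for 9 of 10 after median-of-ratios scaling (50.3%). With the 2 h libraries of both genotypes left out, an alternative added after the data were seen, it was again steeper for 10 of 10 (66.3%), at medians of −0.59 and −1.12. These contrasts are among the values the list was chosen on, so no test of them is given.

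**Figure D3:**
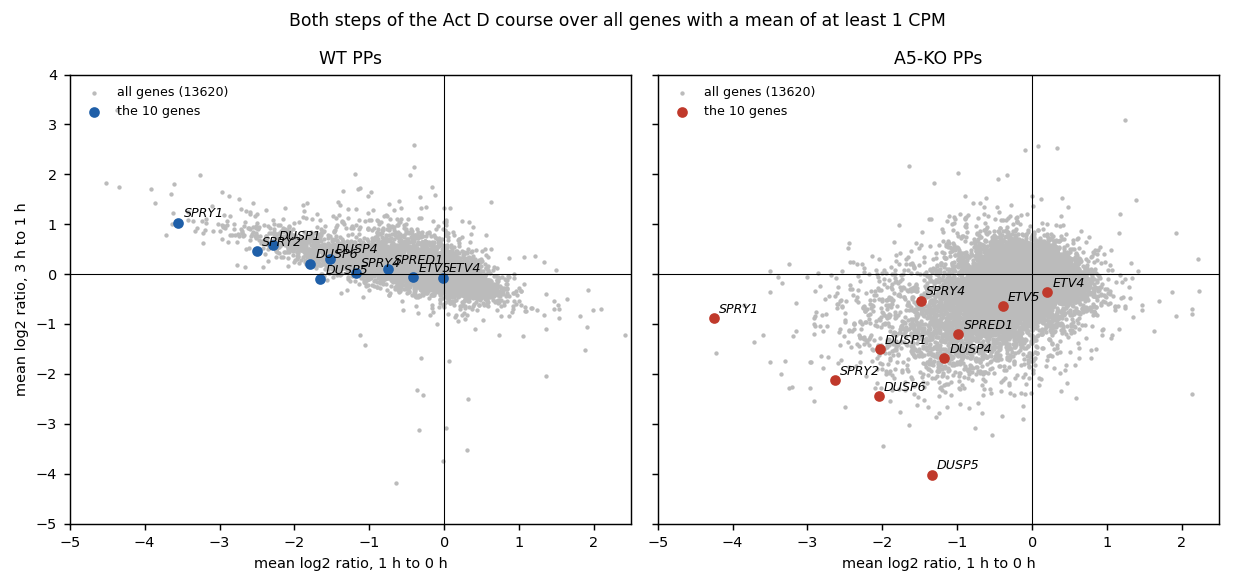
Mean log2 ratio of 1 h to 0 h (horizontal) against that of 3 h to 1 h (vertical) in WT (left) and A5-KO (right) PPs, for 13620 genes in grey and the 10 genes in colour. Both ratios use the 1 h libraries, so they are not independent. In WT the genes farthest to the left lie above 0 on the vertical axis, *SPRY1* at 1.03. In A5-KO all 10 genes lie below 0, *DUSP5* lowest of all at −4.02.

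Half-lives from the same slopes are relative to total mRNA and assume a steady loss, which the WT courses did not show. On that scale *SPRY1* had the shortest, 0.727 h (WT) and 0.482 h (A5-KO). *SPRY2* followed at 0.965 h and 0.562 h, *DUSP1* at 1.15 h and 0.750 h, *DUSP5* at 1.21 h and 0.583 h, and *DUSP6* at 1.23 h and 0.617 h. *DUSP4* was at 1.67 h and 0.980 h, *SPRY4* at 1.89 h and 1.16 h, *SPRED1* at 3.26 h and 1.30 h, and *ETV5* at 5.32 h and 2.68 h. The replicates of *DUSP5* in WT gave 0.894 h and 1.89 h, and those in A5-KO 0.564 h and 0.604 h. The WT estimates were thus the less certain ones. *ETV4* had a slope of 0.01 in WT and −0.03 log2 units per h in A5-KO, too flat for a half-life.

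The WT libraries at 2 h deserve a separate account, because the 10 genes separated them strongly. Replicate 2 was above replicate 1 for 10 of 10 genes (67.3% of genes) and at least 2-fold above for 6 (*DUSP1*, *DUSP4*, *DUSP5*, *DUSP6*, *SPRY1* and *SPRY2*; 4.94%). The median ratio of replicate 2 to replicate 1 was 2.22, and the ratios ran from 1.24 for *ETV4* to 3.46 for *DUSP5*. Replicate 1 was close to A5-KO at 2 h for *DUSP4*, at 5.97 CPM against 6.36 and 5.57 CPM, and for *SPRY1*, at 5.01 CPM against 4.58 and 5.24 CPM. Replicate 2 was at 15.0 CPM for *DUSP4* and 12.8 CPM for *SPRY1*. A level of WT at 2 h is for these genes the mean of 2 unlike libraries.

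In hILOs 1 of the 10 genes was called (limma, adjusted *p* below 0.05 and over 1.5-fold). *ETV4* was at 28.4 and 24.1 TPM in WT against 12.9 and 13.6 TPM in A5-KO, and fell by 0.93 on the log2 scale (SE 0.11, limma adjusted *p* = 0.0180), a 1.98-fold lower mean. That makes 1 of 10 called lower, against 4.09% of 17300 genes, and 0 of 10 called higher (2.70%). The A5-KO libraries lay below both WT libraries for 5 genes (*DUSP1*, *DUSP5*, *DUSP6*, *SPRY1* and *ETV4*; 37.1% of genes) and above both for *DUSP4* and *SPRY2* (24.3%). Without any 1 of the 4 libraries the difference of *ETV4* kept its direction but no longer passed (adjusted *p* of 0.0651 to 0.0858). Blocked on the replicate number it passed at an adjusted *p* of 0.0468, while the genes called in hILOs went from 707 lower and 467 higher to 385 and 289. The median log2 difference of the 10 was −0.09, against −0.06 over all genes.

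Among the phosphatases in hILOs, *DUSP1* was at 50.6 and 52.2 TPM in WT against 33.4 and 35.4 TPM in A5-KO, a log2 difference of −0.57 (SE 0.06, limma adjusted *p* = 0.0153). *DUSP5* was at 339.9 and 338 TPM in WT against 279.8 and 263 TPM in A5-KO, a log2 difference of −0.32 (SE 0.04, limma adjusted *p* = 0.0230). Both passed the limit on *p* and missed that on size, at 1.49-fold and 1.25-fold lower means. *DUSP1* lay just outside the 1.5-fold limit, and neither passed the limit on *p* without any 1 library (adjusted *p* of 0.0596 to 0.108). *DUSP6* was at 38.2 and 39.9 TPM in WT against 33.7 and 33.1 TPM in A5-KO, and *DUSP4* at 27.1 and 31.1 TPM in WT against 36.1 and 32.8 TPM in A5-KO. Neither passed, at adjusted *p* = 0.0949 and 0.202 in limma.

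Of the other inhibitors, in hILOs *SPRY2* was at 20.9 and 21.8 TPM in WT against 26.4 and 25.8 TPM in A5-KO, a log2 difference of 0.28 (SE 0.07, limma adjusted *p* = 0.0809). *SPRY1* was at 12.1 and 9.47 TPM in WT against 8.18 and 8.06 TPM in A5-KO, and did not pass either. The groups overlapped for *SPRY4*, at 4.94 and 6.34 TPM in WT against 7.18 and 5.96 TPM in A5-KO, and for *SPRED1*, at 7.99 and 9.38 TPM in WT against 8.60 and 9.18 TPM in A5-KO. *ETV5*, the other PEA3 factor, was at 18.4 and 10.2 TPM in WT against 20.7 and 16.4 TPM in A5-KO. Its WT libraries were so far apart that no direction could be read.

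**Figure D4:**
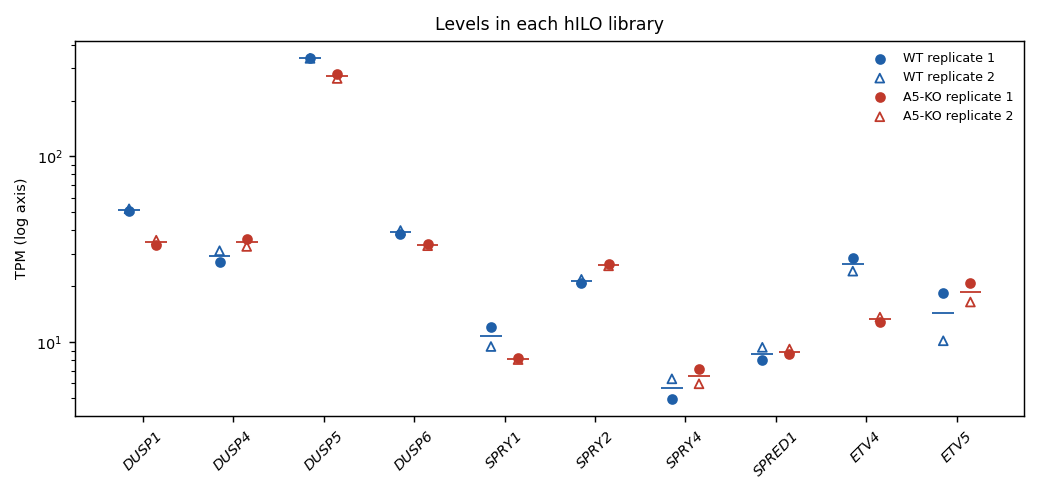
Level of each of the 10 genes (TPM, log axis) in the 4 hILO libraries. Filled circles are replicate 1, open triangles replicate 2 and short lines the mean of 2 libraries, with WT in blue and A5-KO in red. *ETV4* has the widest gap between the genotypes, 26.3 TPM in WT against 13.2 TPM in A5-KO, and *DUSP5* is the most abundant, above 263 TPM in every library.

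The calls in hILOs were made in cultures of differing makeup. The summed level of 9 endocrine markers was 34618 to 36933 TPM in WT and 26570 to 27779 TPM in A5-KO, with 5 of the 9 called lower (4 when blocked on the replicate number), among them *INS*, the insulin gene, at a log2 difference of −0.77, and 1 called higher, *NEUROD1*. The 4 intestine markers summed to 417 TPM in WT and 581 to 586 TPM in A5-KO, and the 6 hepatic markers to 12210 to 12540 TPM in WT and 13382 to 13743 TPM in A5-KO. Of these 6, 1 was called higher, *ALB* at a log2 difference of 1.01, and 1 lower, *FGB* at −0.89. *POU5F1* and *NANOG* were at or near 0. The part of this makeup in the values of *ETV4*, *DUSP1* and *DUSP5* was not tested.

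The rest of the ERK pathway was taken from 5 lists, all drawn up with earlier results of these data known. In hILOs 1 of 12 tested ligands, 0 of 8 receptors, 1 of 20 components of the cascade, 1 of 7 further feedback genes and 3 of 9 further targets were called lower, and 0 of any list was called higher. Over all 17300 genes 4.09% were called lower and 2.70% higher. *FGF18*, a ligand, was at 14.1 and 13.9 TPM in WT against 4.10 and 5.12 TPM in A5-KO (log2 difference −1.42, limma adjusted *p* = 0.0123). *GAB1*, an adaptor of receptor tyrosine kinases, was at 6.30 and 6.72 TPM in WT against 1.01 and 1.84 TPM in A5-KO (−1.65, adjusted *p* = 0.0240). *DUSP7*, the closest relative of *DUSP6* outside the set, was at 7.29 and 8.05 TPM in WT against 2.71 and 3.23 TPM in A5-KO (−1.13, adjusted *p* = 0.0227). The 3 targets were the immediate early genes *FOS*, *IER3* and *MYC*, with log2 differences of −0.91, −0.73 and −0.73. Blocked on the replicate number, *DUSP7* and *MYC* were no longer called (adjusted *p* = 0.0539 and 0.0557 in limma). Like *ETV4*, these genes kept their direction without any 1 library, and their calls were lost in most of those fits.

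In PPs at 0 h, *FGF18* was the single gene of these 5 lists that was called, at 196 and 182 CPM in WT and 114 and 132 CPM in A5-KO (log2 difference −0.62, SE 0.09, limma adjusted *p* = 0.00540). Over all 13911 genes 1.13% were called lower and 1.57% higher, 157 and 218 genes, or 266 and 365 when blocked on the replicate number. The numbers tested were 8 ligands, 8 receptors, 20 cascade components, 8 further feedback genes and 9 further targets. *FGF18* was lower in A5-KO at both stages, although without replicate 1 of WT or of A5-KO the difference in PPs (−0.56 or −0.51) was under the 1.5-fold limit. The receptors for the EGF and FGF in the media did not yield a call at either stage, *EGFR* in hILOs being at 10.2 and 10.4 TPM in WT against 11.4 and 10.3 TPM in A5-KO. *FGFR2*, a receptor for KGF, was at 12.4 and 21.4 TPM in WT hILOs against 9.65 and 7.76 TPM, groups that did not overlap, with a log2 difference of −0.84 (SE 0.29, limma adjusted *p* = 0.140).

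From 1 to 3 h of Act D, 8 of 8 further feedback genes and 8 of 9 further targets had a change below 0 in A5-KO relative to WT, called or not, as did 67.6% of all 13620 genes. The change was called lower in A5-KO for 4 of 8 further feedback genes, 4 of 9 further targets, 2 of 8 ligands, 3 of 20 cascade components and 0 of 8 receptors, and higher for 1 cascade component. Over all genes 18.3% were called lower and 2.25% higher (limma, adjusted *p* below 0.05). The medians of these lists were −0.67, −0.98, −0.78, −0.25 and 0.04 in that order, against −0.20 over all genes. The feedback genes were *ERRFI1*, which encodes an inhibitor of the EGF receptor (−1.89), *SPRED2* (−1.70), *DUSP7* (−1.27) and *IL17RD*, also called SEF (−0.59). The targets were *MYC* (−3.13), *PHLDA1* (−2.51), *FOSL1* (−1.98) and *FOS* (−1.53). *MYC* began at 288.9 and 184 CPM in WT and 302 and 215 CPM in A5-KO. After 3 h it was at 37.6 and 47.1 CPM in WT and 7.44 and 4.33 CPM in A5-KO. The ligands were *AREG* (−1.78) and *FGF18* (−1.03), and the cascade genes the adaptors *FRS2* (−1.30) and *GAB1* (−1.08) and the RAS inactivator *RASA1* (−0.60). *PTPN11*, which encodes the phosphatase SHP2, was the one called higher, at 0.47. The calls of *DUSP7*, *FOSL1*, *GAB1*, *IL17RD* and *RASA1* were lost without 1 or another of the libraries, and those of *IL17RD* and *RASA1* also by median-of-ratios scaling. Of these genes *SPRED2* and *PHLDA1* were also called for a steeper slope over 0 to 3 h in A5-KO, at −0.61 and −0.76 log2 units per h, where 2.61% of genes were called steeper and 0.0661% shallower. Blocked on the replicate number neither was called (limma adjusted *p* = 0.0527 and 0.0635), nor was any other gene, and leaving out 1 of the 16 libraries gave 0 to 1442 steeper genes.

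Genes outside the pathway were called in the same direction. From 1 to 3 h, 5 of 6 tested progenitor markers were also called lower in A5-KO. Among them were *PDX1* at −2.38, *SOX9* at −2.22, *NKX6-1* at −2.001 and *MNX1* at −1.20. *ONECUT1* went the other way, at 0.63, and was not called (limma adjusted *p* = 0.137). The summed level of 7 progenitor markers at 3 h was 336 to 349 CPM in WT and 87.5 to 101 CPM in A5-KO. Of the markers of other cells, 2 of 6 hepatic markers and 1 of 4 intestine markers (*CDX2*, −2.03) were called lower and 2 of 3 mesenchyme markers higher (*COL1A1*, 0.77, and *PDGFRB*, 0.87). The mesenchyme calls were lost when blocked on the replicate number (limma adjusted *p* = 0.0554 and 0.0574).

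Except for *ETV4*, the 10 genes had nearly the same profile over the 16 PP libraries. The Pearson correlation of each gene's log2(CPM + 0.1) with the mean of the other 9 was 0.93 for *SPRY1* to 0.997 for *SPRY2*, and 0.30 for *ETV4*. The 16 libraries share the Act D course, so these values describe the course and carry no *p*. Among 9339 candidate genes outside the set, those closest to its mean profile were *BRPF1* and *PIK3R1* (both r = 0.997), *THUMPD1* and *PPP4R3A* (both r = 0.996) and *SOX9* (r = 0.994), over the same 16 libraries. *SOX9*, a progenitor transcription factor, was at means of 279, 65.3, 79.7 and 81.3 CPM at 0, 1, 2 and 3 h in WT and 259, 61.4, 27.4 and 16.4 CPM in A5-KO. *BRPF1* was at 32.2, 7.90, 7.82 and 10.3 CPM in WT and 30.6, 7.98, 3.39 and 2.22 CPM in A5-KO.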

How the data were processed

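The genotype, stage, time and replicate of each library came from the sample labels. For hILOs the authors used fastp for trimming and HISAT2 (2.1.0 in the submitters' processing notes) for alignment to GRCh38, and deposited TPM per gene, which their methods credit to StringTie. For PPs the authors deposited CPM per gene after spike-ins were removed. The annotation release and the program behind the CPM were not given in the sources used here. At least 99.9984% of CPM values were whole multiples of 1 read (tolerance 0.02 reads), which gave back the read counts. The hILO TPM sum to 887320 to 924887 per library and keep no depth, so no counting error is given for them.

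Genes with a mean of at least 1 were tested with limma 3.58.1 in R 4.3.3 (moderated, with an intensity trend) on log2(TPM + 1), log2(CPM + 1) at 0 h and log2(CPM + 0.1) for courses. Fold changes on these scales understate the change of low genes. Calls needed a Benjamini-Hochberg adjusted *p* below 0.05 and, for levels, over 1.5-fold. Slopes per replicate were lines through the origin. Alternatives were edgeR 4.0.16 and DESeq2 1.42.0 on read counts recovered from the CPM. Per the study's reporting summary the wells of 1 replicate were split from a shared batch of cells, so fits blocked on the replicate number are given beside the results they change. Deviations of same-numbered libraries correlated at −0.07 to 0.17 between genotypes and −0.24 to 0.16 between times of a genotype. The scripts were tested on simulated data. Symbols were matched for 60369 of 60623 PP and 60370 of 60624 hILO identifiers. The 10 genes and the pathway and marker lists were chosen with earlier results of these data known. Named are the 10 genes, *ALKBH5*, from each list the called genes (at most 5 by size), and the 5 genes with the most similar profile among those with at least 10 CPM in WT at 0 h. *DUSP4*, whose UTR also holds the nonamer, is given without sequence. The values of 1 marker gene are not reported here.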

Additional observations from a re-analysis of the deposited data

Results flagged for a closer look

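Between 1 and 3 h of Act D the genotypes moved in opposite directions in every replicate for 5 of the 10 genes. The share of all genes that did so was not computed. By the mean log2 ratio of 3 h to 1 h alone, 8166 of 13620 genes were above 0 in WT and 4856 of 13620 in A5-KO. Opposite directions are therefore not particular to these genes. The mean log2 change was 0.57 in WT and −1.50 in A5-KO for *DUSP1*, 0.31 and −1.69 for *DUSP4*, 0.20 and −2.45 for *DUSP6*, 1.03 and −0.88 for *SPRY1*, and 0.46 and −2.13 for *SPRY2*. This difference was not tested as independent evidence, because the genes were chosen on these values.

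The same interaction of time and genotype passed the limma test for 14 genes of the other ERK pathway lists. Tested were 8 ligands, 8 receptors, 20 cascade components, 8 further feedback genes and 9 further targets. Over all genes 18.3% passed as lower in A5-KO and 2.25% as higher. Some of the calls depended on single libraries, as given above. The A5-KO minus WT difference of the 1 to 3 h change was −3.13 for *MYC*, −2.51 for *PHLDA1*, −1.98 for *FOSL1*, −1.89 for *ERRFI1*, −1.78 for *AREG*, −1.70 for *SPRED2*, −1.53 for *FOS*, −1.30 for *FRS2*, −1.27 for *DUSP7*, −1.08 for *GAB1*, −1.03 for *FGF18*, −0.60 for *RASA1*, −0.59 for *IL17RD* and 0.47 for *PTPN11*. The difference of the slope was −0.61 for *SPRED2* and −0.76 for *PHLDA1*, and neither passed when blocked on the replicate number (limma adjusted *p* = 0.0527 and 0.0635).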

How the results depend on the processing

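Without a filter on low values the counts of genes called lower and higher in A5-KO went from 707 and 467 to 187 and 143 in hILOs and from 157 and 218 to 77 and 87 in PPs at 0 h, where more genes were tested, and *ETV4* in hILOs lost its call (adjusted *p* = 0.0713 in limma; 0.0180 to 0.0858 over its alternatives). Blocked on that number, the counts were 385 and 289 in hILOs, 266 and 365 in PPs at 0 h, and 0 steeper and 0 shallower slopes against 355 and 9, at 2601 and 311 by unadjusted *p* below 0.05 in limma. A block within each genotype, added after seeing the data, also gave 0 and 0 slopes (2521 and 279 unadjusted). In hILOs the block ended the calls of *DUSP7* and *MYC* (adjusted *p* = 0.0539 and 0.0557). It ended the slope calls of *SPRED2* and *PHLDA1* (adjusted *p* = 0.0527 and 0.0635, or 0.0567 and 0.0723 within genotypes). For the ERK pathway lists the block on the replicate number changed no other call. The block within genotypes added a call of the cascade gene *SOS1* for the 1 to 3 h change (limma adjusted *p* = 0.0473 against 0.0542). Slope calls numbered 165 steeper at a pseudocount of 1, 105 steeper and 5 shallower by median-of-ratios scaling, 3 and 51 over 0 and 1 h, 0 and 16 over 0 to 2 h, 2737 and 291 over 0 and 3 h, and 707 and 18 without the 2 h libraries, an alternative chosen after seeing the data. Over 0 and 1 h the difference of *PHLDA1* turned to 0.35. For the 1 to 3 h change, median-of-ratios scaling moved the median of all genes from −0.20 to −0.02 and the split from 2495 lower and 306 higher to 1890 and 800, and edgeR on recovered reads gave 1907 and 756. Leaving out 1 library at a time gave 96 to 203 lower and 83 to 118 higher in hILOs, 127 to 238 higher in PPs at 0 h, 0 to 1442 steeper and 0 to 62 shallower slopes, and 1335 to 3185 lower and 113 to 584 higher 1 to 3 h changes. The difference of *SPRED1* in hILOs ran from −0.071 (without WT replicate 1) to 0.14, and was −0.01 without A5-KO replicate 2. *ETV4* was lower in A5-KO hILOs in each of these 4 fits, by 0.82 to 1.05 on the log2 scale, and passed the threshold in 0 of them (adjusted *p* of 0.0651 to 0.0858), with 1 library left in a group and its spread taken from the others. Apart from the number of genes or libraries that a setting changes by construction, the cause was not tested. TPM keep no depth.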
